A study of Notophthalmus viridescens with 12 samples.

Results

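The dorsal iris of the newt is the tissue from which a new lens grows after lentectomy, the surgery that takes the old lens out. Its pigmented epithelial cells, which carry melanin and rest in the intact eye, re-enter the cell cycle, lose their pigment and take on the fate of lens cells, while the iris stroma holds vessels, nerves and immune cells that respond to the injury. The first hours after lens removal belong to the wound response, and transcripts present in the undisturbed iris but scarce afterwards mark what the tissue no longer holds at its former level.

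The 102 transcripts described here were high in the intact dorsal iris of the eastern newt, Notophthalmus viridescens, and low at every time point sampled after lentectomy. They were chosen by measured values, out of 856451 assembled transcripts in the table. A transcript was taken when its mean in intact iris was 50 or more, when the mean log2(value + 1) of the 3 later groups lay within 1.5 of each other, and when the lowest intact value exceeded the highest later value by 1.5 or more on that scale, a distance called the gap below. A mean of 50 or more in intact iris was found for 62410 transcripts, 54683 of these also met the limit on the later groups, and in 2157 of those every intact value lay above every later value. The gap left 102, fewer than the 200 at which the choice would have been limited. The smallest gap inside was 1.506 and the largest outside 1.496, the lowest intact mean inside was 50.1 and the highest outside 49.9, and the spread of later groups was 1.492 inside and 1.503 outside. The transcript just outside by gap had values of 277, 6.98 and 5.03 in intact iris and of at most 1.14 in the 9 later libraries.

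The libraries came from adult, wild-caught newts of no stated genotype, in 4 groups of 3: intact eyes with no lentectomy, and eyes taken 6 hours after lens removal (6 hpl, hours post-lentectomy), 1 day after it (1 dpl, days post-lentectomy) and 4 days after it (4 dpl), the lens being removed under tricaine anesthesia. Each library pooled dorsal irises of both eyes from 3 or 4 animals, so a value is an average over animals and over all cell types of the tissue, and the replicates are separate pools. Each value is a normalised measure of 1 assembled transcript, called abundance below. Library sums ran between 27737613 and 40770545, and the read depth behind a value could not be recovered. An entry of 0 is therefore not read as absence of the transcript. Transcripts were known only by an ID, and 0 IDs could be matched to a gene name, so the roles of the 102 could not be given and the tissue could not be checked against pigment, lens, muscle, nerve or immune markers.

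One library stood apart, and most of the 102 transcripts depended on it. In intact replicate 1, 2137 transcripts of the whole table reached 50 or more and at least 10 times their value in every other library, against between 1 and 43 in each of the other 11 libraries, where 6 hpl replicate 1 had the most. These 2137 were 0.25% of the table and held 1.53% of that library's sum. Their median abundance was 105 in intact replicate 1, 6.71 and 5.16 in intact replicates 2 and 3, and 2.52, 1.42 and 0.893 at 6 hpl, and it was 0 in each library of 1 dpl and 4 dpl. Of the 2137, 804 had an intact mean of 50 or more, 251 of these were within the limit on the later groups, 213 of these had every intact value above every later value, and 40 of these were among the 102. What set this library apart was not tested, and results are given below with and without it.

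**Figure D1:**
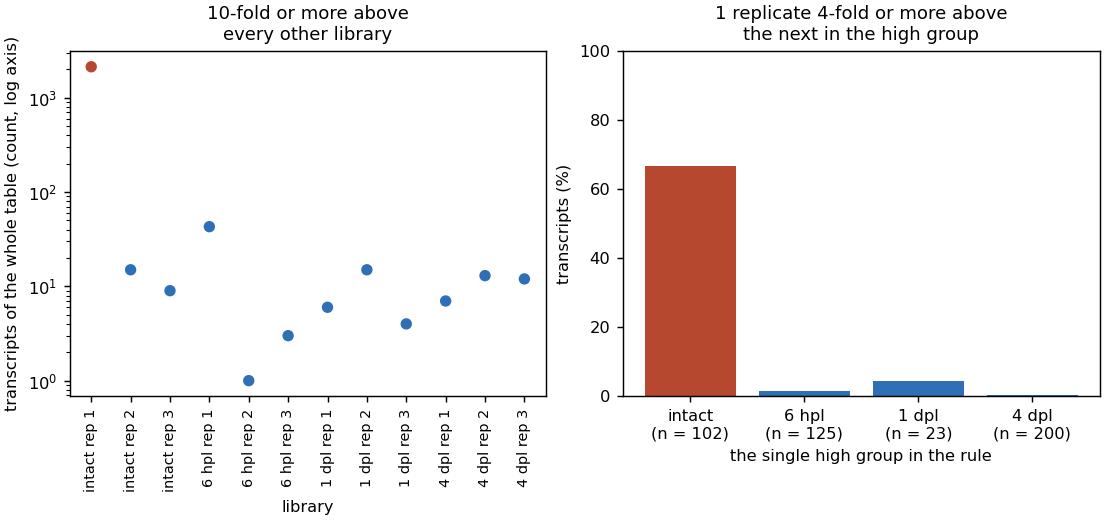
Left, for each of the 12 libraries, the number of transcripts of the whole table at 50 or more and at least 10-fold above every other library (log axis). Right, for the same choice of transcripts with each group in turn as the single high group, the percentage of transcripts in which 1 replicate was 4-fold or more above the next. Intact replicate 1 stood at 2137 on the left, where 6 hpl replicate 1 followed with 43, and the intact bar on the right reached 66.7%, where the other bars lay between 0.5% and 4.35%.

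Within the 102 transcripts, the ratio of intact replicate 1 to the higher of intact replicates 2 and 3 split the set. The ratio ran between 5.64 and 69.5 (median 11.2) in 68 transcripts and between 0.287 and 2.83 (median 0.987) in the other 34, with no transcript between 2.83 and 5.64. The 68 are called high in intact replicate 1, and the 34 are called shared, since this ratio, to the higher of intact replicates 2 and 3, reached 4 in none of them. This dividing ratio was chosen after the values were seen. Intact replicate 1 held the highest intact value in 84 of the 102 transcripts, all 68 of the first class and 16 of the shared ones, where replicate 2 was highest in 8 and replicate 3 in 10.

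**Figure D2:**
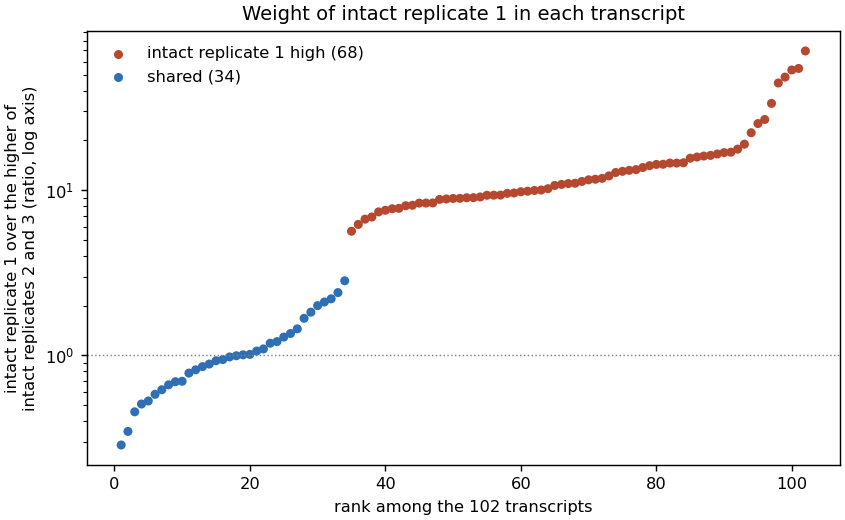
For each of the 102 transcripts, ordered by rank, abundance in intact replicate 1 divided by the higher of intact replicates 2 and 3 (log axis, dotted line at 1). The 34 shared transcripts end at 2.83 and the 68 high in intact replicate 1 begin at 5.64.

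Few transcripts rested on 1 replicate in the other groups. When the same choice was made with another group as the only high one, 125 transcripts were found for 6 hpl, 23 for 1 dpl and 270 for 4 dpl, of which the 200 with the largest gaps were kept. One replicate was 4-fold or more above the next in 68 of the 102 intact-high transcripts (66.7%), in 2 of 125 for 6 hpl (1.6%), in 1 of 23 for 1 dpl (4.35%) and in 1 of 200 for 4 dpl (0.5%). The choice made without intact replicate 1 gave 95 transcripts. Of these 30 were among the 102, and all 30 were shared transcripts. Without intact replicate 2 or 3 the choice gave 197 and 410, and without 6 hpl replicate 1 it gave 367. Intact replicate 1 was 4-fold or more above both other intact replicates in 148, 349 and 294 of these, in the same order. The highest later value lay in 6 hpl replicate 1 for 52 of the 102.

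**Figure D3:**
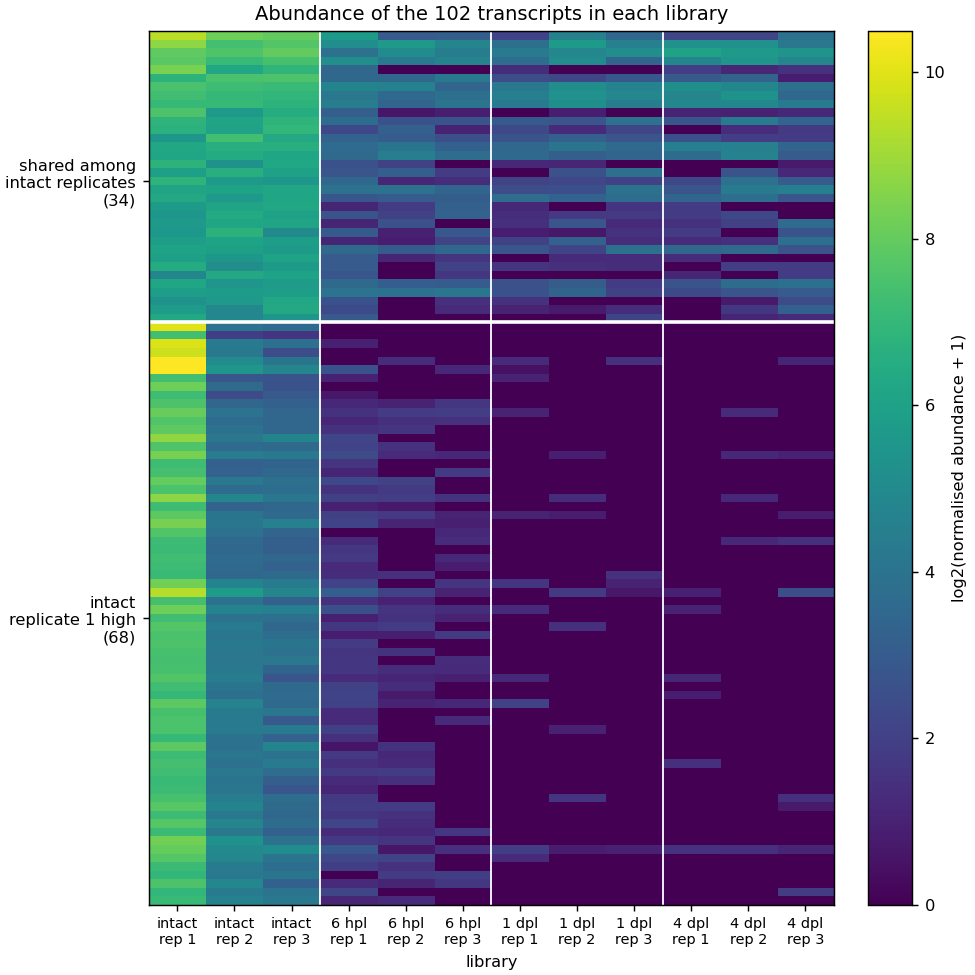
log2(abundance + 1) of the 102 transcripts (rows) in each of the 12 libraries (columns, in order of time, with lines between groups), with the 34 shared transcripts above and the 68 high in intact replicate 1 below. In the lower block the median was 181, 16.8 and 11.6 in intact replicates 1, 2 and 3, and 0 in every library of 1 dpl and 4 dpl, whereas the upper block had intact medians of 77.6, 70.2 and 74.8 and later medians above 0.

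The shared transcripts were at a like median level in the 3 intact pools and lower at 6 hpl. Their median abundance was 77.6, 70.2 and 74.8 in the intact libraries, with 9.48, 6.93 and 6.73 at 6 hpl, 3.67, 5.04 and 3.52 at 1 dpl, then 3.77, 4.64 and 6.45 at 4 dpl. That the drop was in place at 6 hpl followed from the gap that the choice demanded. The like low range of the later groups followed from its limit on their means. In a bulk sample, fewer cells of a type that holds these transcripts and less of each transcript per cell cannot be told apart. Per transcript, the mean at 6 hpl was between 1.91% and 27.4% of the intact mean, with a median of 7.51%. The median was 5.88% at 1 dpl (0% to 22.2%) and 7.74% at 4 dpl (0.305% to 23.1%). With intact replicate 1 left out of the intact mean, these medians were 7.84%, 6.24% and 7.29%, a small change that the definition of the class fixed. Intact means ran between 51.0 and 406 (median 70.9), 30 of the 34 kept an intact mean of 50 or more without replicate 1, and 22 had intact values within 2-fold of each other.

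The shared transcripts were low after lentectomy, as the choice required, and most of their later values were above 0. Of their 306 later values 40 were listed at 0, a larger share than over all transcripts. Each later library had between 10488 and 35104 of all 856451 transcripts at 0. Of the 34 transcripts 26 were above 0 in all 3 libraries of 6 hpl, and 19 in all 9 later libraries. The highest later value of a transcript had a median of 13.3 and ran between 5.23 and 65.3. The transcript with the most left at 6 hpl had 57.7, 52.5 and 56.9 in intact iris, with 15.1, 14.5 and 16.2 at 6 hpl, 5.21, 9.40 and 3.22 at 1 dpl, then 4.06, 5.76 and 7.11 at 4 dpl. Its 3 values at 6 hpl lay close together at 27.4% of the intact mean, and every one of its values at 1 dpl and 4 dpl was lower than those at 6 hpl.

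The most abundant shared transcripts showed how far intact pools varied. The highest had 682, 284 and 253 in intact iris (406 ± 239, SD, n = 3), 51.9, 7.05 and 7.98 at 6 hpl, 3.29, 23.5 and 10.3 at 1 dpl, then 3.69, 3.53 and 13.9 at 4 dpl. Its later values lay far below the intact ones, although one of the 6 hpl libraries stood well above the other two. The next had 412, 164 and 206 in intact iris, with 34.7, 48.4 and 26.1 at 6 hpl, 13.6, 51.4 and 22.9 at 1 dpl, then 38.1, 38.6 and 17.4 at 4 dpl. It stayed at a similar low level throughout, with no order among the later groups beyond the spread of their replicates. By contrast, a transcript near the middle of the class had 68.3, 67.3 and 72.4 in intact iris (69.4 ± 2.71, SD, n = 3) and 14.6, 14.7 and 9.75 at 6 hpl. In that transcript the spread of the replicates was small in intact iris and at 6 hpl. It was larger afterwards, with 4.62, 4.95 and 14.2 at 1 dpl, then 5.85, 19.3 and 22.3 at 4 dpl. The shared transcript with the largest gap, 2.84, had 329, 77.8 and 116 in intact iris, with 10.001, 0 and 0 at 6 hpl, 1.59, 0 and 0 at 1 dpl, then 2.74, 1.16 and 1.85 at 4 dpl. It also had the highest ratio of intact replicate 1 within its class, 2.83.

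Among the later groups the shared transcripts followed no single order, within the limit set by the choice. The mean log2 value at 1 dpl was below that at 6 hpl in 24 of 34, and at 4 dpl it was above that at 6 hpl in 15 of 34. The shares of all transcripts that did so were not counted, and none of the 34 passed the adjusted threshold given below in these comparisons. The lowest of the 3 later mean log2 values was at 6 hpl for 10 transcripts, at 1 dpl for 14 and at 4 dpl for 10, and the highest was at 6 hpl for 19, at 1 dpl for 4 and at 4 dpl for 11. The 3 values at 4 dpl lay wholly above those at 6 hpl in 1 of the 34, beside 12.3% of all transcripts tested, and wholly below them in 2, beside 13% of all. The transcript wholly above was 1_2955903, one of the 2 with the largest difference between 4 dpl and 6 hpl. Its abundance was 241, 193 and 247 in intact iris, with 14.1, 32.8 and 20.1 at 6 hpl, 18.3, 27.6 and 33.95 at 1 dpl, then 65.3, 49.6 and 42.1 at 4 dpl. The mean at 4 dpl, 52.3 ± 11.8, stood against 22.3 ± 9.54 at 6 hpl (SD, n = 3 each), a difference of 1.25 on the log2 scale (SE 0.371), and made up 23.1% of the intact mean of 227 ± 29.6. The other, 1_3232257, had 49.3, 71.1 and 68.2 in intact iris, with 1.10, 5.07 and 0 at 6 hpl, 1.65, 5.88 and 1.35 at 1 dpl, then 1.82, 3.12 and 11.8 at 4 dpl. Its difference of 1.18 (SE 0.668) between 4 dpl and 6 hpl rested on 4 dpl replicate 3, and the values of those groups overlapped.

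**Figure D4:**
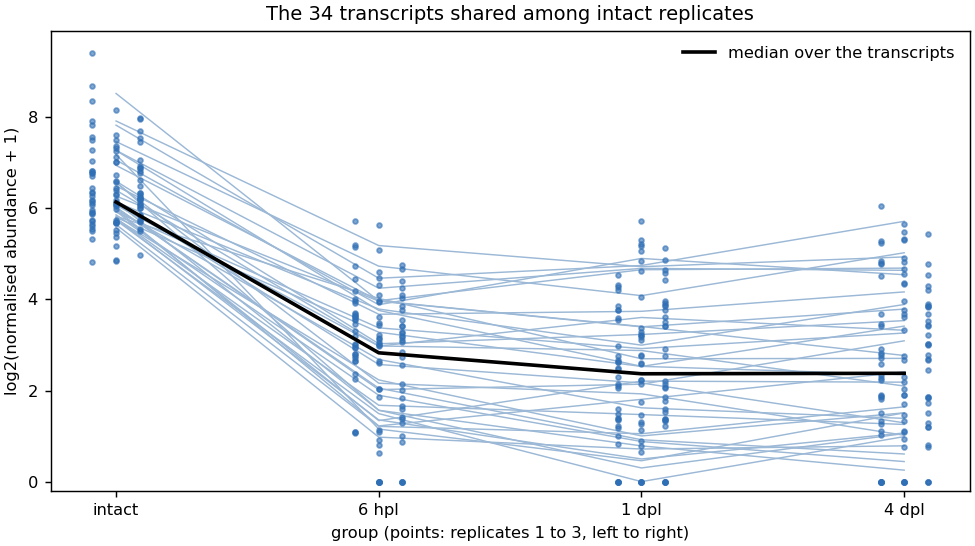
log2(abundance + 1) of the 34 shared transcripts in intact iris and at 6 hpl, 1 dpl and 4 dpl. Points are single libraries (replicates 1 to 3 placed left to right), thin lines join the group means of each transcript, and the thick line is the median over the 34. The lines drop between intact and 6 hpl, as the choice required, and cross afterwards. At 1 dpl 24 of 34 transcripts were lower than at 6 hpl, and at 4 dpl 15 of 34 were higher.

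The 68 transcripts high in intact replicate 1 had a different profile. Their abundance in intact replicate 1 ran between 120.5 and 1437 (median 181), between 2.87 and 54.4 in replicate 2 (median 16.8) and between 1.97 and 33.2 in replicate 3 (median 11.6). At 6 hpl the medians were 1.94, 1.10 and 0, and in each library of 1 dpl and 4 dpl the median was 0, with no value above 4.73. The medians were thus highest in intact replicate 1, lower in the other intact libraries and lower still at 6 hpl. The division into classes and the gap of the choice had set this order in advance. Replicate 2 exceeded replicate 3 in 57 of the 68 transcripts, with a median ratio of 1.35, and 438 of the 612 later values were listed at 0. Each later library had between 10488 and 35104 of all 856451 transcripts at 0. In 45 of the 68 transcripts all 6 values of 1 dpl and 4 dpl were listed at 0, in 4 all 9 later values, and in 1 none.

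Without replicate 1 this class no longer met the choice. The mean of intact replicates 2 and 3 ran between 2.42 and 40.3 (median 14.1), and 0 of the 68 reached the 50 that the choice asked for. Over all transcripts of the table, the median was 8.37 in intact replicate 2 and 8.51 in intact replicate 3. All 68 still had every intact value above every later one, as the choice demanded. The median share left at 6 hpl was 1.78% of the intact mean, and 8.85% when replicate 1 was left out of that mean, a value near the 7.84% of the shared class. That the level in intact iris and the depth of the fall changed without replicate 1 restates the ratio that defined this class. The gap of the choice also limited how much could be left at 6 hpl in either class. None of the 68 had a higher mean log2 value at 4 dpl than at 6 hpl. In 53 of them all 3 values at 4 dpl were listed at 0, so a higher mean was not possible there. The share of all transcripts that did so was not counted.

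The 2 transcripts with the largest gaps were of this class. The transcript 1_820447 had 1033, 14.9 and 11.6 in intact iris and was listed at 0 in all 9 later libraries, with a gap of 3.66. The transcript 1_3295331 had 984, 18.5 and 13.2 in intact iris, with 0.890, 0 and 0 at 6 hpl, and 0 in all libraries of 1 dpl and 4 dpl, with a gap of 2.91. Intact replicate 1 stood 69.5-fold above the next intact library for the first of them and 53.3-fold for the second. They stood in adjoining rows of the table, 824081 and 824082. On the log2(value + 1) scale 1_820447 differed by -5.89 (SE 1.10) at 6 hpl against intact, and by -3.82 (SE 0.504) without intact replicate 1. For 1_3295331 these values were -5.71 (SE 1.07) and -3.75 (SE 0.538).

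Summed per library, the 102 transcripts held 0.0707%, 0.0136% and 0.0115% of the total abundance in intact iris, with 0.00145%, 0.00111% and 0.000761% at 6 hpl, 0.00061%, 0.00131% and 0.000778% at 1 dpl, then 0.000934%, 0.00113% and 0.000752% at 4 dpl. The intact mean was 0.0319% ± 0.0336% (SD, n = 3), a spread among pools larger than the mean, with replicate 1 far above the other pools. The later means were 0.00111% ± 0.000345% at 6 hpl, 0.000901% ± 0.000368% at 1 dpl and 0.000938% ± 0.000189% at 4 dpl, and the libraries of these 3 groups overlapped. The sum over the shared transcripts alone was 4278, 3088 and 3280 in intact iris, with 408, 297 and 262 at 6 hpl, 202, 354 and 281 at 1 dpl, then 333, 409 and 291 at 4 dpl. The intact sums thus lay between 3088 and 4278, and the 9 later sums between 202 and 409 with all later groups overlapping. The sum over the 68 others was 18410, 1223 and 879 in intact iris, with 145, 74.7 and 43.9 at 6 hpl, 17.0, 11.1 and 6.07 at 1 dpl, then 7.42, 6.90 and 15.3 at 4 dpl. In these 68 the sums at 1 dpl and 4 dpl lay below every sum at 6 hpl, with 438 of their 612 later values listed at 0. No sums of other transcripts were set beside them. Transcript by transcript, all 6 hpl values lay above all 4 dpl values in 13 of the 68, beside 13% of all transcripts tested. The sums therefore do not show a further fall in most of the 68.

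All contrasts among the groups had been used in choosing the transcripts, those against intact by the gap and those among later groups by the limit of 1.5, so counts of transcripts past a threshold are given as a description only. By limma with Benjamini-Hochberg adjustment over 855254 transcripts, a transcript is called at an adjusted p under 0.05. Of the 102, 101 were called lower at 6 hpl against intact, where 0.717% of all transcripts tested were called lower. That count was 36 with a pseudocount of 0.1, where 0.262% of all were called lower, and 46 when only transcripts with a mean of 10 or more were tested, where 0.899% were. In the fit as first given, 101 were also called lower at 1 dpl against intact, beside 1.63% of all, and again at 4 dpl against intact, beside 2.37% of all. These comparisons share the intact libraries, and 1 transcript, high in intact replicate 1, was not called in any of them. Every intact value lay above every later value in 2.68% of all transcripts tested, and by the choice itself in all 102. The median log2 difference over the 34 shared transcripts was -3.55 at 6 hpl, -3.94 at 1 dpl and -3.88 at 4 dpl, and over the 68 others -4.06, -5.01 and -5.01, beside medians of -0.01, -0.01 and -0.03 over all transcripts tested.

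The classes had been separated by the ratio of intact replicate 1 to the other intact libraries, so a larger change in the 68 when it is left out restates that division. The medians without it were -3.67, -3.96 and -3.86 in the shared transcripts and -2.81, -3.77 and -3.76 in the others. The calls without it were 89 at 6 hpl, of which 32 were shared transcripts, beside 0.328% of all transcripts called lower. They were 101 at both 1 dpl and 4 dpl, beside 1.18% and 1.7% of all. Calls at 6 hpl also depended on a later library, with 63 calls, of which 31 were shared transcripts, without 6 hpl replicate 3, beside 0.198% of all.

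Among the later groups none of the 102 was called by limma. The shares called in either direction over all transcripts tested were 0.587% for 1 dpl against 6 hpl, 3.9% for 4 dpl against 6 hpl and 0.719% for 4 dpl against 1 dpl. An unadjusted p under 0.05 was found for 4 of the 102 in the first of these (3 lower, 1 higher), for 6 in the second (5 lower, 1 higher) and for 2 in the third (both higher), all of them shared transcripts. Over all transcripts tested, the shares at an unadjusted p under 0.05 were 13.1%, 18.1% and 12.1% in the same order, in comparisons where the choice had bounded the differences of the 102. Median log2 differences in the shared transcripts were -0.46, -0.18 and 0.14, and in the others -0.93, -0.94 and 0, within the limit that the choice had set.

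The first digit of the ID, which the choice had not used, was unevenly spread. An ID opens with a single digit set off from the rest, and the study assembled the reads of each condition on their own before merging the assemblies, but no source used here says what the digit stands for. It was 1 in 49 of the 102 transcripts (48.0%) and 2 in 37 (36.3%), so that 86 of 102 (84.3%) opened with 1 or 2. Over the whole table that share was 25.5% (218315 of 856451), and it was 30.1% among the 62410 transcripts with an intact mean of 50 or more. The remaining digits of the 102 were 3 in 4 transcripts, 4 in 9, 5 in 1 and 6 in 2, and none had 7, 8 or 9. The share of 1 or 2 was 61 of 68 (89.7%) in the transcripts high in intact replicate 1 and 25 of 34 (73.5%) in the shared ones. The share in the table varied with the row, at 23.2% in rows up to 700000, which held 17 of the 102 (15 with 1 or 2), and 35.5% above row 700000, which held 85 (71 with 1 or 2). In rows 700001 to 720000, where 55 of the 102 lay, it was 65.0%, and 51 of those 55 opened with 1 or 2. It was 35.0% in rows 720001 to 740000, where 13 of 23 did, 46.5% in rows 820001 to 840000, where 4 of 4 did, and 71.3% in rows 840001 to 856451, where 3 of 3 did. Read against their own rows, the 102 were thus less far from the table than the 25.5% shows. The share was also high in the 2137 transcripts in 10-fold excess in intact replicate 1, of which 40 were among the 102. There 1763 (82.5%) opened with 1 or 2, so the uneven spread was not particular to the 102. Other digits prevailed where another group was the high one. Digits 3 and 4 made up 88.8% of the 125 transcripts high only at 6 hpl (30.4% of the table), digits 5 and 6 73.9% of the 23 high only at 1 dpl (22.6%), and digits 7 and 8 68.0% of the 200 high only at 4 dpl (20.8%). These pairs of digits were looked at after the values were seen, and no test was made of them.

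**Figure D5:**
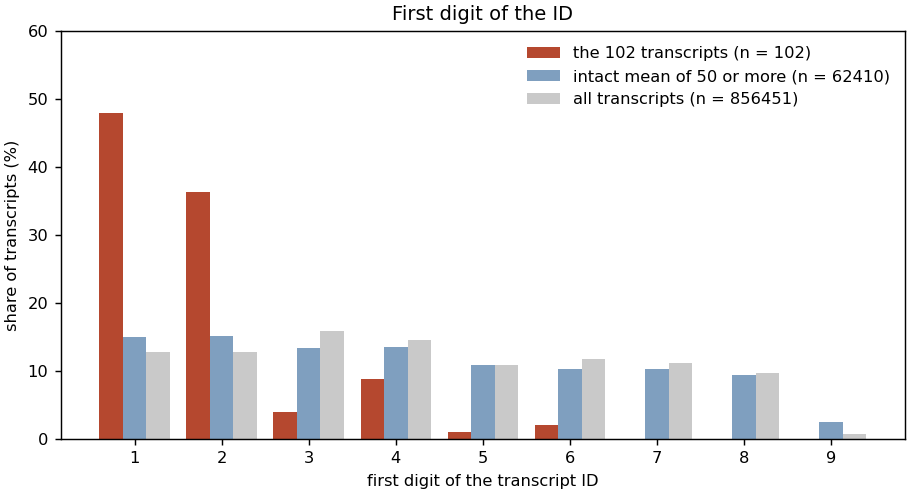
Percentage of transcripts by the first digit of the ID, for the 102 transcripts, for the 62410 with an intact mean of 50 or more and for all 856451. Digits 1 and 2 made up 48.0% and 36.3% of the 102, and 12.8% and 12.7% of all transcripts.

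The 102 transcripts also lay close together in the table. The 55 in rows 700001 to 720000 and the 23 in rows 720001 to 740000 made up most of them, while 4 lay in rows 820001 to 840000 and 3 in rows 840001 to 856451. Rows above 700000 held 85 in all, including all 68 transcripts high in intact replicate 1 and 17 of the 34 shared ones. The other 17 shared transcripts were spread over rows up to 700000. Most of the 2137 transcripts in 10-fold excess in intact replicate 1 lay in the same ranges. These were 718 in rows 700001 to 720000, 747 in rows 720001 to 740000, 12 in rows 820001 to 840000 and 620 in rows 840001 to 856451. Such closeness was thus not particular to the 102. No source used here says what the order of rows stands for. IDs near each other may be isoforms or fragments of 1 gene that share reads, so 102 transcripts are not 102 genes.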

How the data were processed

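Bulk RNA-seq of dorsal iris was analysed in 12 libraries, 3 per group by the time point in the labels. The labels give an input of 108 ng RNA per library, 4 h of depletion of overabundant RNA and 13 cycles of PCR. The authors trimmed reads with Trim Galore, removed ribosomal reads, assembled each condition with Trinity, merged the assemblies and quantified transcripts with Salmon. Their versions are not given in the sources used here. Values as deposited are a normalised abundance signal per transcript, averaged over Salmon's inferential replicates. The authors call them TPM, but their library sums differ from 1000000, so they were treated as a signal without depth.

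The choice of transcripts was applied as stated in the report (Python 3.11.15, pandas 2.3.3, numpy 2.4.6). For calls, log2(value + 1) of transcripts at 1 or more in at least 3 libraries (855254) was fitted with limma 3.58.1 in R 4.3.3 (data.table package, version 1.17.8) as 4 group means with a variance trend, two-sided, with Benjamini-Hochberg adjustment at 0.05. The authors' own test needs inferential replicates, which were not used here. With 3 libraries a side, exact permutation p-values stop at 0.1, so none was computed. Differences understate the change of transcripts of low abundance.

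The transcripts, lists and tests were chosen with earlier results of these data known. A list of cell type markers was set out but not run, as 0 IDs matched a name. IDs printed are the 2 transcripts with the largest gap and the 2 with the largest mean log2 difference between 4 dpl and 6 hpl. Other transcripts described without an ID were picked after their values were seen.

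Replicate numbers were checked for pairing. Deviations from group means correlated between -0.186 and 0.0542 over the 18 pairs of libraries with the same number, 0 of them over 0.1. Over the 36 pairs with different numbers the range was -0.0971 to 0.221, with 2 over 0.1. Those were intact replicate 3 with 1 dpl replicate 1 (0.221) and intact replicate 1 with 1 dpl replicate 3 (0.14). The labels name no shared animal or day. The numbers were not taken to pair libraries. Alternatives covered pseudocount, filter, variance trend, scaling, samples in the fit, replicate block, the limits of the choice and each library left out.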

Additional observations from a re-analysis of the deposited data

How the results depend on the processing

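The number of transcripts meeting the choice depended on its limits. It was 44 with a pseudocount of 0.1 (37 of them among the 102), 270 with a gap of 1 and 41 with a gap of 2, 228 with an intact mean of 25 and 25 with a mean of 100, and 53 with the later groups within 1 and 237 without that limit. Leaving out each library in turn gave 93 to 410, the highest without intact replicate 3. It was 367 without 6 hpl replicate 1 and 197 without intact replicate 2. Scaling to equal totals gave 134, of which 99 were among the 102.

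Calls at 6 hpl against intact were 36 with a pseudocount of 0.1 (23 shared transcripts), beside 2244 of 855254 transcripts called lower, and 46 with a filter at a mean of 10 (34 shared), beside 3065 of 340764. They lay between 63 and 101 with each library left out. Calls against intact at 1 dpl and 4 dpl stayed within 1.5 times of 101 under the 19 alternatives each. At 4 dpl against 6 hpl the count was 0 to 1 with each library left out, the 1 arising without 1 dpl replicate 1. With a replicate block the calls were 101, 101 and 102 against intact and 0 among later groups. For the block, and for the calls at 1 dpl and 4 dpl, the shares over all transcripts are not given here. All of these contrasts had been used in the choice, so the counts are a description and do not measure how firm the result is. The share of IDs opening with 1 or 2 was 73.5% in the shared transcripts alone. The cause of these movements was not tested.

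With 3 pools per group and no read depth, the precision of single low values is unknown.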

Other observations

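Of the 34 shared transcripts, 17 lay in rows up to 700000 and 17 in the 156451 rows above, a much smaller part of the table. This division was made after the values were seen. The 17 in rows up to 700000 were above 0 in all 9 later libraries, and their median share of the intact mean was 12.6% at 6 hpl, 11.4% at 1 dpl and 16.7% at 4 dpl. In the 17 above row 700000, 40 of 153 later values were listed at 0, and the medians were 4.51%, 2.07% and 3.07%. Intact means had a median of 97.9 in the lower rows and 62.9 in the higher rows. The mean log2 value at 4 dpl exceeded that at 6 hpl in 10 of the 17 transcripts in lower rows and in 5 of the 17 in higher rows. At 1 dpl it was below that at 6 hpl in 10 of the 17 in lower rows and in 14 of the 17 in higher rows. No test was made of these differences, and the shares of all transcripts in those rows that did so were not counted. The mean at 6 hpl had a median of 14.0 in the lower rows and 3.33 in the higher rows. With values that near 0 in the higher rows, the counts are not on equal terms.

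Fewer transcripts met the choice with intact iris and 6 hpl or 4 dpl as the high groups than with intact iris alone. The same limits gave 19 transcripts for intact and 6 hpl and 14 for intact and 4 dpl, beside 102 for intact alone. Of the 102, 68 were high in intact replicate 1 and 34 were shared. How many of the 19 and the 14 rested on a single library was not counted. Intact with 1 dpl was not counted either. The choices differed in how many libraries had to be high and how many low, so the counts are not on equal terms.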
